A study of Cavia porcellus with 11 samples.

Results

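The proteasome genes of the guinea pig cochlea were followed across an RNA-seq series on cisplatin, a platinum drug used against tumours whose side effects include hearing loss. All genes whose symbol begins with Psm, then a letter from a to g and a number, were taken, which gave 50 of the 21481 genes measured. Of these, 48 are proteasome genes. They comprise 14 genes of the 20S core, the 3 immunoproteasome subunits Psmb8, Psmb9 and Psmb10, 17 genes of the 19S regulatory particle, 5 genes of activators and an inhibitor, 7 genes of assembly chaperones, and the tissue-specific core genes Psma8 and Psmb11. The other two symbols, Psmc3ip and Psme3ip1, name proteins that bind a subunit and are not part of the proteasome, so they were kept out of the counts below. The groups were cochleae of guinea pigs given cisplatin plus STB (3 libraries, called cotreatment here), cisplatin alone (4 libraries) and no treatment (4 libraries, called control). The series title names Schisantherin B, a plant lignan, and the labels do not spell out STB. No library came from animals given STB alone, and dose, time after treatment, age, sex and strain are in none of the sources used here.

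A library held 15183801 to 17967896 counts in the cotreated group, 15987935 to 17250430 in the cisplatin group and 14338894 to 18508296 in the control group. All 10 genes on a list of cochlear markers, among them Coch, and all 7 hair cell genes were detected. The labels leave unsaid if each library is a different animal, so p-values measure the spread between libraries, which may be technical. In whole tissue, fewer cells of a type and less RNA per cell cannot be told apart.

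The proteasome degrades proteins that carry ubiquitin chains. Its core is a barrel of stacked rings. The outer rings are made of the alpha subunits encoded by the Psma genes and gate the entrance, and the inner rings are made of the beta subunits encoded by the Psmb genes, of which Psmb5, Psmb6 and Psmb7 carry the cutting sites. The 19S particle caps the barrel, recognises ubiquitin, removes the chain and threads the substrate inward with a ring of ATPases encoded by the Psmc genes. Under interferon, and constantly in many immune cells, Psmb8, Psmb9 and Psmb10 are built into new cores in place of Psmb5, Psmb6 and Psmb7, which alters the peptides offered to MHC class I.

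Transcript levels were compared between genes as FPKM, in which the authors scaled counts by exon length and library total. The highest was Psmd13, a lid subunit of the 19S particle, with a level of 131, 130.4 and 111 FPKM in the cotreated libraries, 130.4, 137, 116 and 124 FPKM after cisplatin and 131, 111, 119 and 101 FPKM in control. Psmb1 and Psmb4, beta subunits without a cutting site, followed with mean levels of 113 and 110.4 FPKM over the 11 libraries. These 3 genes overlapped in their library values. At the lower end, Psmg4, a chaperone of core assembly, had a mean level of 6.90 FPKM, Psmb8 6.91 FPKM and Psmb9 4.48 FPKM. Psmc3ip, which is no subunit and overlaps Coasy and Mlx on the opposite strand, was lower still at 2.83 FPKM. Its 359 to 550 counts a library were close to the 385 to 600 counts of the assembly chaperone gene Psmd9, which had 11.8 FPKM. The gap between them in FPKM therefore comes from the scaling by exon length.

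The core was the most abundant class. The median level of its 14 genes was 76.1 FPKM, with a range of 41.6 FPKM for Psmb2 to 113 FPKM for Psmb1, although a core holds each of these subunits in equal number. The 17 genes of the 19S particle had a median level of 59.8 FPKM and spread more widely, between 19.7 FPKM for the ATPase gene Psmc6 and 122 FPKM for Psmd13. The median was 32.0 FPKM for activators and inhibitor, 18.99 FPKM for assembly chaperones and 6.91 FPKM for the immunoproteasome. Over all 15384 genes that entered the tests it was 7.73 FPKM. Psma8, an alpha subunit of the testis, had 0 counts in every library, and Psmb11, a beta subunit of the thymus cortex, had at most 0.138 CPM (counts scaled to library size, in control replicate 1). Both were removed by the filter on low counts, and the other 46 proteasome genes were tested.

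**Figure D1:**
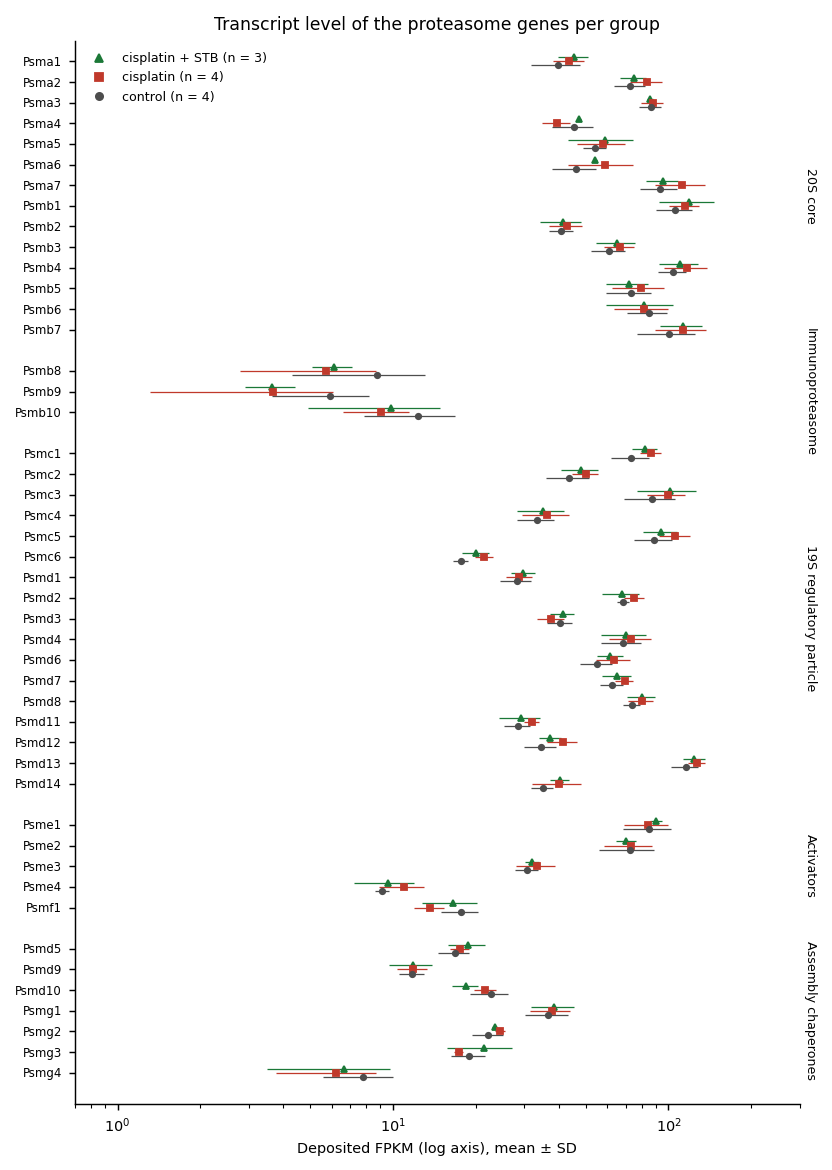
Mean level of the 46 tested proteasome genes in each group, in deposited FPKM on a log axis, with SD as horizontal bars (3 cotreated, 4 cisplatin and 4 control libraries). Core genes lie between 41.6 and 113 FPKM on average over all libraries, and the immunoproteasome genes Psmb8, Psmb9 and Psmb10 lie near 10 FPKM or lower in most libraries, with wide bars.

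Single libraries stood apart for the proteasome genes. Cisplatin replicate 2 held the highest value of all 11 libraries for 36 of 46 proteasome genes, which is 78.3% against 18.8% of all genes. These were 13 of 14 core genes, 15 of 17 genes of the 19S particle and 0 of 3 immunoproteasome genes. Control replicate 4 held the lowest value for 23 of 46 (50.0%, against 11.5% of all genes). The average log2 CPM of the core relative to the control mean was 0.12, 0.20 and -0.12 in the cotreated libraries, 0.11, 0.51, 0.11 and -0.02 in the cisplatin libraries and 0.22, -0.0014, 0.02 and -0.23 in the control libraries. The cisplatin libraries other than replicate 2 lay within the range of the controls. For the 19S particle it was 0.07, 0.20 and 0.02 under cotreatment, 0.07, 0.44, 0.21 and 0.17 after cisplatin and 0.08, 0.06, 0.03 and -0.16 in control. Here cisplatin replicates 2, 3 and 4 lay above all controls and replicate 1 within them. Cisplatin replicate 2 also had the highest macrophage marker sum of the 11 libraries, 159 CPM, and the highest Irf1, 101 CPM beside 25.4 to 40.2 CPM in the other cisplatin libraries. Irf1 belongs to a list of 15 tested genes that interferon induces. The average log2 CPM of that list relative to the control mean was -0.05 in this library, below control replicates 1 (0.41) and 4 (1.24). The leukocyte marker sum was 47.2 CPM there, below control replicate 1 (50.3 CPM) and cotreated replicate 2 (54.3 CPM). The summed level of the 7 hair cell genes was also highest in cisplatin replicate 2 (2456 CPM) and lowest in control replicate 4 (708 CPM), with 1601 to 2031 CPM in the other controls. Ocm alone made up 1912 CPM of that sum in cisplatin replicate 2 and 343 CPM in control replicate 4. As average log2 CPM relative to the control mean, the hair cell genes were again lowest in control replicate 4 (-0.72). By that measure cisplatin replicate 2 (0.40) lay below cotreated replicates 1 (0.71) and 3 (0.61) and cisplatin replicate 4 (0.46). The part of such cells in the proteasome values of these libraries was not tested.

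**Figure D2:**
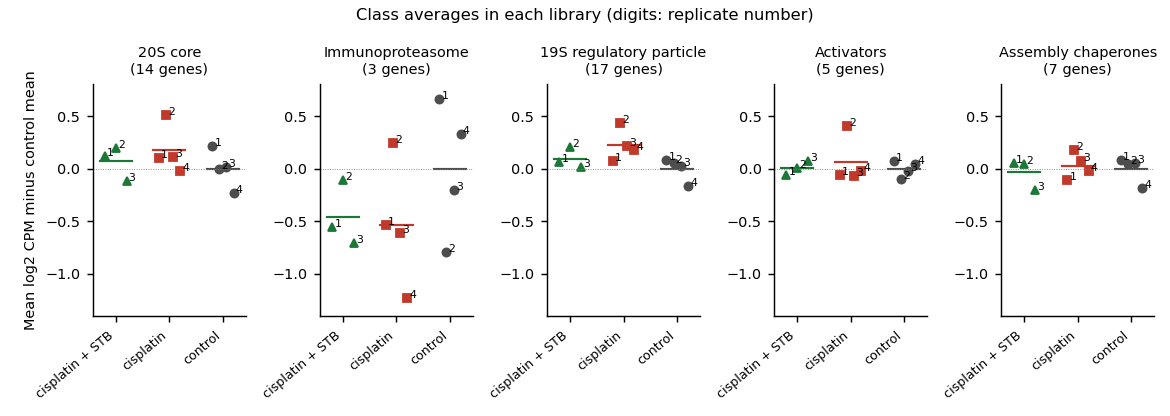
Average log2 CPM of each class of proteasome genes in each library minus its control mean, with the replicate number beside each point and the group mean as a bar. Cisplatin replicate 2 is the highest point of every class except the immunoproteasome, where control replicate 1 is highest at 0.66 and cisplatin replicate 4 lowest at -1.22.

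The first question of the design was how cisplatin acts on the cochlea. Core and 19S genes had positive log2 fold changes for cisplatin over control almost throughout, of small size, and no single gene passed the test. At an edgeR adjusted p under 0.05 (quasi-likelihood test, Benjamini-Hochberg over all genes) 0 of 46 proteasome genes were called, against 0% of all genes tested. DESeq2 and limma-voom called 0 of the 46 as well, against 0.215% and 0.0195% of all genes. At an unadjusted edgeR p under 0.05, 5 of 46 were higher after cisplatin, which is 10.9% against 4.43% of all genes, and 0 were lower against 5.28%. The fold change was positive for 37 of 46 genes (80.4%, against 49.1% of all genes). The 5 genes were Psmc6, Psmd12, Psmc1, Psmc5 and Psma6. The number of such genes was 2 without cisplatin replicate 2, control replicate 3 or control replicate 4, 9 without cisplatin replicate 1, 10 without control replicate 1 and 1 without both cisplatin replicate 2 and control replicate 4. The share of all genes in each of these runs is not given here, so these counts have no background beside them.

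The second question was whether STB given with cisplatin alters the state after cisplatin. For cotreatment over cisplatin the signs were mostly opposite, and no gene passed the test. Of 46 genes 0 were called by edgeR, DESeq2 or limma-voom at an adjusted p under 0.05, against 0.0195% of all genes by edgeR, 0.650% by DESeq2 and 1.40% by limma-voom. With the p unadjusted and under 0.05, 0 of 46 were higher and 0 lower, against 4.45% and 4.58% of all genes. The log2 fold change was negative for 38 of 46 genes (82.6%, against 49.2% of all genes). These fold changes and those of cisplatin over control use the same cisplatin libraries, so a high value in one of them enters both with opposite sign.

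For cotreatment over control, again 0 of 46 genes were called by edgeR, DESeq2 or limma-voom, against 0% of all genes by each of the tools. Without adjustment, 0 had an edgeR p under 0.05 on the higher side and 0 on the lower side, against 0.397% and 0.676% of all genes. The fold change was positive for 34 of 46 (73.9%, against 49.1% of all genes). The control libraries are also those of cisplatin over control, so a low value in one of them enters both comparisons with the same sign.

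**Figure D3:**
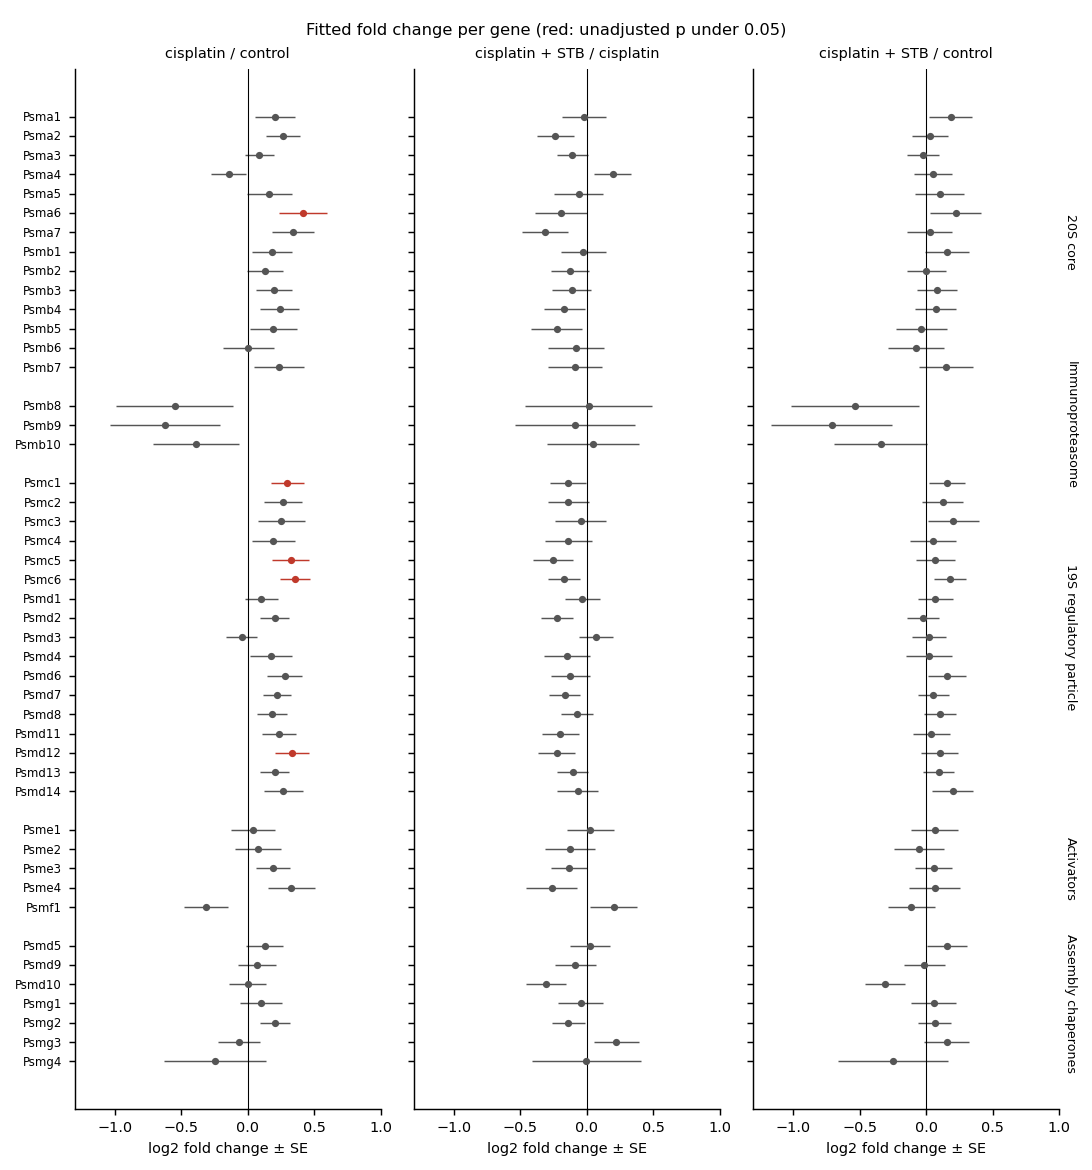
Fitted log2 fold change of each tested proteasome gene with its SE as a horizontal bar, for cisplatin over control, cotreatment over cisplatin and cotreatment over control, from an edgeR model over 11 libraries. Genes with an unadjusted p under 0.05 are red, which holds for Psma6, Psmc1, Psmc5, Psmc6 and Psmd12 in the first panel and for none in the others.

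Among the 14 core genes, 13 had a positive log2 fold change for cisplatin over control, with a median of 0.19 beside -0.01 over all genes. The exception was Psma4, an alpha subunit, with -0.14 (SE 0.13). Between cotreatment and cisplatin 13 of 14 were negative with a median of -0.11, and Psma4 was again the exception with 0.19 (SE 0.14). For cotreatment over control the median log2 fold change was 0.06, with 11 of 14 positive. Without cisplatin replicate 2 the median was 0.09 for cisplatin over control and -0.01 for cotreatment over cisplatin. Without both cisplatin replicate 2 and control replicate 4, a choice made after seeing the data, the median for cisplatin over control was 0.01.

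Psma6, an alpha subunit of the outer ring, had the largest fold change of the core. Its level was 66.6, 62.4 and 67.3 CPM in the cotreated libraries, 63.2, 106, 68.7 and 61.8 CPM after cisplatin and 62.9, 62.3, 56.9 and 42.5 CPM in control. Only cisplatin replicate 2 stood out on the high side and control replicate 4 on the low side, and the groups overlapped. The fitted log2 fold change was 0.41 (SE 0.18, adjusted p = 0.512 by edgeR) for cisplatin over control and 0.21 without cisplatin replicate 2. Cotreatment gave -0.19 (SE 0.19) over cisplatin and 0.22 (SE 0.19) over control, the last being 0.11 without control replicate 4.

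Psma7, another alpha subunit, reached 88.5, 99.3 and 81.0 CPM under cotreatment, 91.0, 147, 109.8 and 99.1 CPM after cisplatin and 100.4, 87.9, 92.7 and 71.0 CPM in control. The high value was again that of cisplatin replicate 2. This gave a log2 fold change of 0.34 (SE 0.16, adjusted p = 0.512 by edgeR) for cisplatin over control and -0.32 (SE 0.17, adjusted p = 0.633 by edgeR) for cotreatment over cisplatin. Without cisplatin replicate 2 these values were 0.19 and -0.17. Psma2, also of the alpha ring, had 76.4, 78.7 and 67.6 CPM in the cotreated libraries, 83.8, 107, 79.5 and 80.5 CPM after cisplatin and 82.5, 72.7, 74.1 and 61.6 CPM in control. All 3 cotreated libraries lay below all 4 cisplatin libraries, by a narrow margin. Psma2 and the chaperone gene Psmg2 were the 2 of 46 proteasome genes (4.35%) with such a gap on the low side, against 3.73% of all genes, and 0 had one on the high side, against 3.81%. The log2 fold change of Psma2 was -0.24 (SE 0.14, adjusted p = 0.655 by edgeR) for cotreatment over cisplatin, and -0.15 without cisplatin replicate 2. Psma1 came into the 8 smallest p-values for cotreatment over control, with a log2 fold change of 0.18 (SE 0.16, adjusted p = 0.9999 by edgeR), or 0.07 without control replicate 4.

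The 3 constitutive cutting subunits were far above their replacements in level and none of them passed the test. Psmb5, which cuts after hydrophobic residues, averaged 72.2 ± 11.3 CPM under cotreatment, 84.5 ± 19.1 CPM after cisplatin and 74.0 ± 13.1 CPM in control (SD, n = 3, 4 and 4). Psmb6, which cuts after acidic residues, averaged 69.6 ± 17.6 CPM under cotreatment, 73.5 ± 17.0 CPM after cisplatin and 73.3 ± 11.9 CPM in control. Psmb7, which cuts after basic residues, averaged 109.7 ± 16.7 CPM under cotreatment, 116 ± 25.5 CPM after cisplatin and 99.1 ± 22.8 CPM in control. For cisplatin over control their log2 fold changes were 0.19 (SE 0.18), 0.01 (SE 0.19) and 0.23 (SE 0.19), each smaller than 1.5 times its SE. Relative to cisplatin, cotreatment gave -0.23, -0.08 and -0.09, and over control -0.04, -0.07 and 0.15. The sign for Psmb6 was not stable for any of these comparisons when single libraries were left out.

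The immunoproteasome genes had the opposite sign to most of the core. All 3 had lower means in both treated groups than in control, with wide spread between libraries, and none passed the test. Their median log2 fold change was -0.55 for cisplatin over control, 0.01 for cotreatment over cisplatin (with 1 of 3 negative) and -0.54 for cotreatment over control. Both comparisons with control use the same control libraries, so a high value in one of those enters both with the same sign. For cisplatin over control the median was -0.90 without cisplatin replicate 2, -0.74 without cisplatin replicate 2 and control replicate 4 together, and -0.26 without control replicate 1. Without control replicate 1 that for cotreatment over control was -0.27. In cotreatment over cisplatin it was 0.35 without cisplatin replicate 2 and -0.25 without cisplatin replicate 4. Psmb8, which replaces Psmb5, had 8.01, 7.82 and 6.08 CPM in the cotreated libraries, 6.80, 12.0, 7.54 and 2.68 CPM after cisplatin and 16.2, 4.37, 7.93 and 13.9 CPM in control. The control libraries spanned the whole range of the cotreated libraries, and the cisplatin libraries ranged more widely than those as well, with control replicates 1 and 4 high and replicate 2 below every cotreated library. The fit gave a log2 fold change of -0.55 (SE 0.44, adjusted p = 0.692 by edgeR) for cisplatin over control, and -0.54 (SE 0.48, adjusted p = 0.9999 by edgeR) for cotreatment over control. For cotreatment over cisplatin it was 0.01 (SE 0.48). Leaving out single libraries gave -0.90 without cisplatin replicate 2 and -0.26 without control replicate 1 for cisplatin over control.

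Psmb9, which replaces Psmb6, rested on only 38 to 131 counts a library. Its level was 2.71, 4.02 and 3.67 CPM under cotreatment, 2.37, 7.37, 2.55 and 2.50 CPM after cisplatin and 7.85, 3.00, 4.75 and 7.16 CPM in control. Cisplatin replicate 2 lay between the 2 highest controls, while the other 3 cisplatin libraries lay below all controls. Expressed as log2 fold change, this was -0.62 (SE 0.42, adjusted p = 0.632 by edgeR) for cisplatin over control, -1.19 without cisplatin replicate 2 and -0.42 without control replicate 1. With cotreatment it was -0.09 (SE 0.45) over cisplatin, or 0.47 without cisplatin replicate 2, and -0.71 (SE 0.45, adjusted p = 0.9999 by edgeR) over control.

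Psmb10, which replaces Psmb7, had 8.46, 15.1 and 6.08 CPM in the cotreated libraries, 11.8, 11.4, 8.49 and 6.59 CPM after cisplatin and 19.1, 8.49, 10.5 and 12.2 CPM in control. Cotreated replicate 2 lay between the 2 highest controls, and the groups overlapped. In the fit the log2 fold change was -0.39 (SE 0.32, adjusted p = 0.698 by edgeR) for cisplatin over control, and -0.11 without control replicate 1. With cotreatment it was 0.05 (SE 0.35) over cisplatin and -0.34 (SE 0.35) over control, or -0.08 without control replicate 1. Control replicate 1 held the highest value of all 11 libraries for each of the 3 immunoproteasome genes, as it did for 7.01% of all genes.

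**Figure D4:**
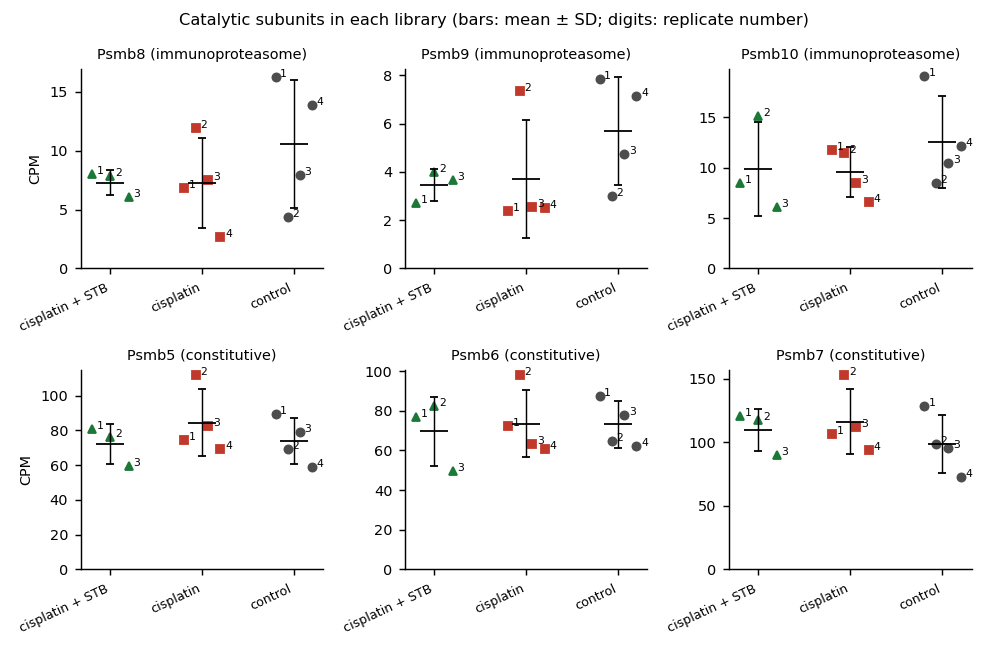
Level in CPM of the immunoproteasome subunits (top) and the constitutive subunits they replace (bottom) in every library, with mean and SD as bars and the replicate number beside each point. The control values of Psmb8 run between 4.37 and 16.2 CPM and enclose the 3 cotreated values, and cisplatin replicate 2 is the highest cisplatin library in each panel except that of Psmb10.

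As a share of the summed FPKM of the 6 cutting subunits, the immunoproteasome genes made up 5.75%, 8.06% and 6.66% in the cotreated libraries, 6.90%, 7.06%, 6.03% and 4.61% after cisplatin, and 11.2%, 5.83%, 7.57% and 13.1% in control. The mean share was 6.82% ± 1.16 under cotreatment (SD, n = 3), 6.15% ± 1.12 after cisplatin (n = 4) and 9.43% ± 3.33 in control (n = 4). Control replicates 1 and 4 lay above all treated libraries, and control replicate 2 lay within both treated groups. By gene, Psmb6 exceeded Psmb9 by a mean of 23.1-fold in FPKM under cotreatment, 25.7-fold after cisplatin and 16.1-fold in control. Psmb5 exceeded Psmb8 by 11.8-fold under cotreatment, 17.0-fold after cisplatin and 10.6-fold in control. Psmb7 exceeded Psmb10 by 12.8-fold under cotreatment, 12.9-fold after cisplatin and 8.69-fold in control. The ranges of the libraries overlapped between the groups for each pair.

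Psmb9 and Psmb8 lie on one scaffold, on opposite strands 8093 bases apart, at positions 47889782 to 47894281 on the minus strand and 47902375 to 47905223 on the plus strand, with Tap1 between them. Tap1, which carries peptides into the endoplasmic reticulum, had -0.03 (SE 0.25) for cisplatin over control and -0.36 (SE 0.27) for cotreatment over control, as log2 fold changes. Of 10 tested genes of MHC class I loading, 0 were called in any comparison by edgeR. At an unadjusted edgeR p under 0.05, 0 were higher and 2 lower after cisplatin, Nlrc5 and Tap2 (20% of the list, against 5.28% of all genes). For cotreatment over cisplatin 1 was higher, Calr (10%, against 4.45%), and for cotreatment over control 1 was lower, Nlrc5 (10%, against 0.676%). Tap2, the partner of Tap1, had -0.52 (SE 0.22) for cisplatin over control, and Calr, a chaperone of the endoplasmic reticulum, 0.49 (SE 0.22) for cotreatment over cisplatin. The value of Calr was 0.11 without cotreated replicate 3, which had 2089 CPM beside 1139 and 1059 CPM in the other cotreated libraries. Tapbp, which holds MHC class I near the transporter, had -0.31 (SE 0.19) for cotreatment over cisplatin, or -0.18 without cisplatin replicate 2, and -0.35 (SE 0.19) over control, or -0.22 without cotreated replicate 1. Nlrc5, an activator of MHC class I genes and of Psmb9, had 2.78, 4.60 and 3.73 CPM under cotreatment, 3.37, 2.91, 3.44 and 3.05 CPM after cisplatin and 6.06, 4.18, 6.11 and 10.3 CPM in control. All 4 cisplatin libraries lay below all 4 controls, as held for 3.26% of all genes. Nlrc5 was named for its small p and had only 837 counts over the 11 libraries. Its log2 fold change was -1.06 (SE 0.29, adjusted p = 0.440 by edgeR) for cisplatin over control, or -0.77 without control replicate 4. For cotreatment over control it was -0.85 (SE 0.31, adjusted p = 0.9999 by edgeR), or -0.55 without control replicate 4.

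Of 23 listed genes that interferon induces 15 were tested and 0 were called by edgeR in any comparison. At an unadjusted edgeR p under 0.05, 0 of 15 were higher or lower in the comparisons of cisplatin with control and of cotreatment with cisplatin. The shares of all genes there were 4.43% to 5.28% by direction. For cotreatment over control 0 were higher, against 0.397% of all genes, and 1 was lower, against 0.676%. It was Cxcl10, with a log2 fold change of -2.20 (SE 0.98) and -1.24 without control replicate 4. Over the 15 genes the median log2 fold change was -0.65 for cisplatin over control, -0.08 for cotreatment over cisplatin and -0.54 for cotreatment over control. For cisplatin over control 13 were negative and 2 positive. Irf1, with the smallest p of the list there, was positive, between 0.10 (without cisplatin replicate 2) and 0.91 with single libraries left out. For cotreatment over cisplatin Irf1 lay between -1.03 and -0.23 (without cisplatin replicate 2). The summed level of the 15 genes was 325 to 663 CPM under cotreatment, 359 to 558 CPM after cisplatin and 341 to 1302 CPM in control. Their mean log2 CPM relative to the control mean was -0.81, -0.91 and 0.15 in the cotreated libraries, -0.36, -0.05, -0.06 and -0.68 after cisplatin and 0.41, -0.83, -0.83 and 1.24 in control. That of the immunoproteasome genes was -0.56, -0.11 and -0.70 in the cotreated libraries, -0.54, 0.24, -0.61 and -1.22 after cisplatin and 0.66, -0.79, -0.20 and 0.33 in control. Control replicates 1 and 4 were the high controls for both. Control replicate 3 was as low as replicate 2 for the interferon list only, and cotreated replicate 3 was the highest cotreated library for the interferon list and the lowest for the immunoproteasome. Ifng, which encodes interferon gamma, and Ubd, a ubiquitin-like gene induced by it, had 0 counts in all libraries. Of 7 leukocyte genes listed, 5 were in the table and all 5 were tested, with a summed level of 31.7 to 54.3 CPM under cotreatment, 19.3 to 47.2 CPM after cisplatin and 39.3 to 50.3 CPM in control. For the 7 macrophage genes the sums were 48.7 to 103 CPM under cotreatment, 53.8 to 159 CPM after cisplatin and 72.5 to 89.3 CPM in control. Cisplatin replicate 4 had the lowest leukocyte sum and the lowest Psmb8 of the cisplatin libraries. Its Psmb9, 2.50 CPM, was close to that of cisplatin replicates 1 (2.37 CPM) and 3 (2.55 CPM). The controls did not line up in this way. Control replicates 2 and 4 had similar leukocyte sums, 41.7 and 42.5 CPM, but immunoproteasome sums of 15.9 and 33.2 CPM. Whether interferon or the number of blood-borne cells bears on the immunoproteasome values was not tested.

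The 19S particle had the most even pattern. For cisplatin over control 16 of its 17 genes had a positive log2 fold change, with a median of 0.24, and Psmd3 was the exception at -0.05 (SE 0.12). Between cotreatment and cisplatin 16 of 17 were negative, with a median of -0.14 (-0.07 without cisplatin replicate 2 or without cotreated replicate 3), and Psmd3 was again the exception at 0.07 (SE 0.13). For cotreatment over control 16 of 17 were positive, with a median of 0.09 (0.04 without control replicate 4) and Psmd2 as the exception at -0.02 (SE 0.12). The median for cisplatin over control stayed between 0.17 and 0.28 when each library was left out in turn, and was 0.11 without both cisplatin replicate 2 and control replicate 4. Of the 5 proteasome genes that were higher after cisplatin at an unadjusted edgeR p under 0.05, 4 are among these 17, against 4.43% of all genes. The 17 are themselves a large part of the 46 tested proteasome genes. The count of 5 fell to 2 without cisplatin replicate 2 and to 1 without both that library and control replicate 4.

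The 6 ATPase genes of the ring that unfolds substrates, Psmc1 to Psmc6, had positive log2 fold changes for cisplatin over control, with a median of 0.28 and a lowest value of 0.19 (Psmc4). Psmc6 had 58.2, 45.5 and 50.9 CPM in the cotreated libraries, 53.0, 65.4, 55.3 and 58.5 CPM after cisplatin and 45.5, 45.8, 47.8 and 42.6 CPM in control. All 4 cisplatin libraries lay above all 4 controls, and the cotreated libraries overlapped both groups. Psmc6 and Psmd8 were the 2 of 46 proteasome genes (4.35%) with such a gap on the high side, against 2.80% of all genes, and 0 had one on the low side, against 3.26%. The log2 fold change of Psmc6 was 0.35 (SE 0.11, adjusted p = 0.448 by edgeR) for cisplatin over control, the smallest p of the 46, and between 0.30 and 0.40 with single libraries left out. Cotreatment gave -0.17 (SE 0.12) over cisplatin, or -0.09 without cotreated replicate 2, and 0.18 (SE 0.12) over control, or 0.08 without cotreated replicate 1. The table holds a second gene described as the same subunit, with 132 to 286 counts a library, and reads that match both genes make the Psmc6 value uncertain. That gene had 14.9, 12.0 and 14.0 CPM under cotreatment, 17.3, 14.4, 17.0 and 16.2 CPM after cisplatin and 9.09, 13.3, 13.9 and 12.8 CPM in control, and its log2 fold change for cisplatin over control was 0.40 (SE 0.16).

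Psmc1 had 135, 141 and 121 CPM under cotreatment, 139, 168, 140.5 and 138 CPM after cisplatin and 142, 118, 116 and 99.5 CPM in control. Control replicate 1 exceeded 3 of the 4 cisplatin libraries. Its log2 fold change for cisplatin over control was 0.30 (SE 0.12, adjusted p = 0.492 by edgeR). Psmc5 had 126, 141 and 113 CPM under cotreatment, 132, 182, 147 and 144 CPM after cisplatin and 146, 118, 116 and 103 CPM in control. Here control replicate 1 lay within the cisplatin values and cisplatin replicate 2 above everything else. On the log2 scale its fold change was 0.32 (SE 0.14, adjusted p = 0.504 by edgeR) for cisplatin over control and -0.25 (SE 0.15, adjusted p = 0.663 by edgeR) for cotreatment over cisplatin, the last being -0.17 without cisplatin replicate 2.

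Of the lid, Psmd12, a scaffold subunit, had 139, 161 and 165 CPM in the cotreated libraries, 152, 173, 194 and 209 CPM after cisplatin and 131, 169.9, 135 and 141 CPM in control. Unlike most of the genes, it was highest in cisplatin replicate 4, and control replicate 2 lay among the cisplatin values. The fitted log2 fold change was 0.33 (SE 0.13, adjusted p = 0.475 by edgeR) for cisplatin over control and -0.23 (SE 0.14, adjusted p = 0.673 by edgeR) for cotreatment over cisplatin. Psmd8, a lid subunit, had 95.6, 96.0 and 81.4 CPM under cotreatment, 90.5, 113, 91.3 and 89.7 CPM after cisplatin and 89.2, 75.7, 88.3 and 85.6 CPM in control. The lowest cisplatin library was barely above the highest control, and the log2 fold change was 0.18 (SE 0.11, adjusted p = 0.613 by edgeR). Psmd14, the deubiquitinase that cuts the chain off a substrate, had 59.3, 66.3 and 62.4 CPM under cotreatment, 50.8, 85.2, 60.7 and 66.4 CPM after cisplatin and 54.6, 59.1, 55.5 and 49.2 CPM in control. All 3 cotreated libraries lay above all 4 controls by less than 1 CPM, which held for 1 of 46 proteasome genes (2.17%) and 1.02% of all genes. None of the 46 had such a gap on the low side, 0% against 1.39%. Its log2 fold change for cotreatment over control was 0.20 (SE 0.16, adjusted p = 0.9999 by edgeR).

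Psmd2, a scaffold of the base, averaged 191 ± 23.9 CPM under cotreatment, 223 ± 22.8 CPM after cisplatin and 194 ± 6.59 CPM in control (SD, n = 3, 4 and 4). This gave a log2 fold change of -0.23 (SE 0.12, adjusted p = 0.630 by edgeR) for cotreatment over cisplatin. Psmd6 and Psmd7, also of the lid, had log2 fold changes of 0.28 (SE 0.13) and 0.22 (SE 0.11) for cisplatin over control and of -0.12 (SE 0.14) and -0.17 (SE 0.12) for cotreatment over cisplatin. Psmd4, a ubiquitin receptor, had 0.17 (SE 0.16) and -0.15 (SE 0.17) for the same comparisons. The value of Psmd6 for cisplatin over control was 0.17 without cisplatin replicate 2. The remaining 19S genes, Psmc2, Psmc3, Psmd1, Psmd11 and Psmd13, had log2 fold changes between 0.10 (Psmd1) and 0.26 (Psmc2) after cisplatin. Psmc2 overlaps Dnajc2 by 837 bases and Psmd1 overlaps Htr2b, in both cases on the opposite strand, and no source used here says if the counting took strand into account.

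**Figure D5:**
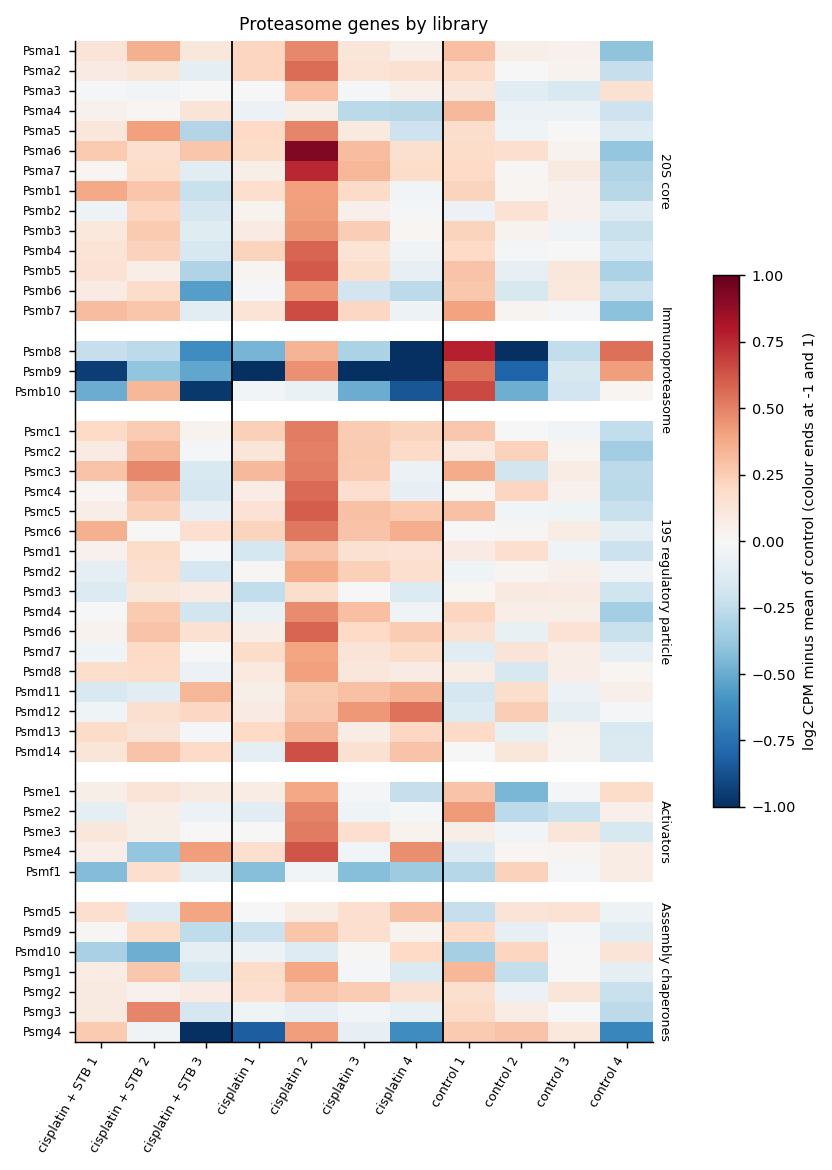
Log2 CPM of each tested proteasome gene in each library minus the mean of the 4 control libraries, by class, with red for higher and blue for lower values and colours ending at -1 and 1. The column of cisplatin replicate 2 is red over most of the core and the 19S particle, where its class averages are 0.51 and 0.44, and the column of control replicate 4 is mostly blue there with -0.23 and -0.16.

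Psme1 and Psme2 encode the ring-shaped activator that opens the core without ATP and is induced by interferon. Psme1 had 89.8, 94.0 and 91.5 CPM under cotreatment, 90.5, 112, 84.8 and 73.2 CPM after cisplatin and 105, 62.8, 85.3 and 97.6 CPM in control. Psme2 had 61.6, 68.7 and 63.2 CPM under cotreatment, 60.9, 92.9, 63.8 and 64.8 CPM after cisplatin and 88.5, 54.8, 56.6 and 68.1 CPM in control. For both, the cotreated libraries lay close together while cisplatin and control ranged widely, with control replicate 2 the lowest of all libraries. Their log2 fold changes for cisplatin over control were 0.04 (SE 0.16) and 0.08 (SE 0.17), for cotreatment over cisplatin 0.02 (SE 0.18) and -0.13 (SE 0.19), and for cotreatment over control 0.07 and -0.05. They lie next to each other on one scaffold with a gap of 3930 bases. Psme3, a nuclear activator, averaged 66.7 ± 2.44 CPM under cotreatment, 73.3 ± 12.7 CPM after cisplatin and 64.1 ± 5.31 CPM in control. Psme4, an activator linked to acetylated histones and sperm formation, had log2 fold changes of 0.33 (SE 0.18) for cisplatin over control and -0.26 (SE 0.19) for cotreatment over cisplatin. Psmf1, named as an inhibitor of the core, had the opposite signs, with -0.31 (SE 0.17, adjusted p = 0.556 by edgeR) and 0.20 (SE 0.18). Its level was 19.8, 30.1 and 25.2 CPM under cotreatment, 19.9, 26.3, 19.9 and 21.0 CPM after cisplatin and 21.96, 31.4, 26.5 and 28.3 CPM in control, with overlap between all groups.

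The 7 assembly chaperones did not follow one direction. For cisplatin over control 4 of 7 had a positive log2 fold change, with a median of 0.07, and for cotreatment over cisplatin 5 of 7 were negative, with a median of -0.05. Psmd10, a chaperone of the ATPase ring also known as gankyrin, had 43.7, 39.1 and 51.4 CPM in the cotreated libraries, 52.9, 50.3, 55.3 and 63.0 CPM after cisplatin and 43.4, 63.6, 54.7 and 59.8 CPM in control. Cotreated replicates 1 and 2 lay below all cisplatin libraries and replicate 3 among them. The fit gave a log2 fold change of -0.31 (SE 0.15, adjusted p = 0.591 by edgeR) for cotreatment over cisplatin, -0.31 (SE 0.15, adjusted p = 0.9999 by edgeR) over control, and -0.00081 (SE 0.14) for cisplatin over control. Psmg2, a chaperone of alpha ring assembly, had 30.5, 29.4 and 30.3 CPM under cotreatment, 32.2, 34.7, 34.1 and 31.7 CPM after cisplatin and 32.0, 27.5, 31.1 and 24.4 CPM in control. The cotreated libraries lay just below the cisplatin libraries, with a log2 fold change of -0.14 (SE 0.12). Psmd5 and Psmd9, further chaperones of the ATPase ring, and Psmg1, Psmg3 and Psmg4, further chaperones of the core, had log2 fold changes between -0.25 (Psmg4) and 0.13 (Psmd5) for cisplatin over control.

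Proteins that work with the proteasome gave a mixed picture. Of 20 tested genes, which include ubiquitin receptors, deubiquitinases and assembly factors outside the Psm symbols, 0 were called by edgeR in any comparison. At an unadjusted edgeR p under 0.05, 2 of 20 were higher and 0 lower after cisplatin, against 4.43% and 5.28% of all genes. Cotreatment over cisplatin gave 1 higher and 2 lower, against 4.45% and 4.58%. For cotreatment over control 0 were higher and 0 lower, against 0.397% and 0.676%. Pomp, the maturation protein that core assembly requires, had 101, 112 and 111 CPM under cotreatment, 109.6, 132, 133 and 138 CPM after cisplatin and 100.4, 101, 104 and 98.0 CPM in control. All 4 cisplatin libraries lay above all 4 controls, as held for 2.80% of all genes. Expressed as log2 fold change, this was 0.35 (SE 0.10, adjusted p = 0.440 by edgeR) for cisplatin over control and -0.25 (SE 0.11, adjusted p = 0.531 by edgeR) for cotreatment over cisplatin. Pithd1 had 0.32 (SE 0.12) and -0.32 (SE 0.13) as log2 fold changes for these comparisons. Paaf1, a protein that binds the ATPases of the 19S particle, ran the other way, with 17.8, 21.98 and 18.5 CPM under cotreatment, 14.7, 12.2, 13.4 and 15.1 CPM after cisplatin and 16.7, 17.8, 17.2 and 15.7 CPM in control. The cotreated libraries lay above all others, by less than 1 CPM at the nearest control, and the cisplatin libraries below all controls. Of all genes, 3.81% had such a gap for cotreatment above cisplatin, 1.02% for cotreatment above control and 3.26% for cisplatin below control. In the fit the log2 fold change of Paaf1 was 0.49 (SE 0.14, adjusted p = 0.385 by edgeR) for cotreatment over cisplatin and -0.28 (SE 0.13, adjusted p = 0.517 by edgeR) for cisplatin over control.

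NFE2L1 is the transcription factor that raises proteasome genes when proteasome activity falls, and small MAF proteins are its partners on DNA. Nfe2l1 itself averaged 132 ± 15.8 CPM under cotreatment, 128 ± 2.96 CPM after cisplatin and 143 ± 16.5 CPM in control, and its log2 fold change for cisplatin over control was -0.16 (SE 0.11). Of 12 tested genes of this pathway 0 were called by edgeR. At an unadjusted edgeR p under 0.05, 2 of 12 were higher and 0 lower after cisplatin, against 4.43% and 5.28% of all genes, and these were the small MAF genes Maff and Mafk. Both were lower for cotreatment over cisplatin, against 4.58% of all genes, in a comparison that shares the cisplatin libraries. Maff had 8.53, 9.14 and 5.78 CPM under cotreatment, 9.86, 51.9, 18.0 and 16.4 CPM after cisplatin and 9.02, 6.75, 9.30 and 10.2 CPM in control. Cisplatin replicate 2 was far above the rest, and cisplatin replicate 1 lay within the control values. Its log2 fold change was 1.45 (SE 0.43, adjusted p = 0.440 by edgeR) for cisplatin over control and -1.62 (SE 0.47, adjusted p = 0.388 by edgeR) for cotreatment over cisplatin. Without cisplatin replicate 2 the values of Maff were 0.75 and -0.93. Mafk had log2 fold changes of 0.47 (SE 0.21) and -0.70 (SE 0.23) for the same comparisons, and 0.22 and -0.45 without that library. Of 4 genes that supply and activate ubiquitin 0 were called by edgeR, and at an unadjusted edgeR p under 0.05 0 were higher or lower in any comparison. The share of all genes at such a p was 0.397% to 5.28% by comparison and direction, so 0 of 4 says little. Rps27a, a fusion of ubiquitin with a ribosomal protein, had the smallest p of them for cisplatin over control, at 0.26 on the log2 scale (SE 0.16) and 0.17 without control replicate 2. Ubb, which encodes ubiquitin, had log2 fold changes of -0.05 (SE 0.15) for cisplatin over control, 0.22 (SE 0.16) for cotreatment over cisplatin and 0.17 (SE 0.16) for cotreatment over control, the last being 0.073 without control replicate 4.

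The spread between libraries of a group was small for most proteasome genes. The median coefficient of variation of the CPM of the 46 genes was 12.9% in the cotreated group, 14.5% in the cisplatin group and 13.3% in the control group. Over all genes tested, which include many with lower counts, it was 17.8% under cotreatment, 18.9% after cisplatin and 15.7% in control. For the 3 immunoproteasome genes it was 19.5% under cotreatment, 52.5% after cisplatin and 39.3% in control.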

How the data were processed

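The series measured RNA from guinea pig cochleae by paired-end, strand-marking RNA-seq in 11 libraries, per the labels' protocols, which give oligo(dT) selection or rRNA depletion without saying which library had which. The deposited table holds whole-number read counts per gene and FPKM values made by the authors, and the deposited FPKM equalled count divided by exon length and library total to within 0.005. The submitters' processing notes name cutadapt 1.9.1, HISAT2 2.2.1 and HTSeq 0.6.1; no source used here gives the genome build, the use of strand in counting or the treatment of reads matching several genes. The positions of all 50 genes equal those of RefSeq assembly mCavPor4.1. Scaffold names are left out.

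Counts of 21481 genes were fitted in edgeR 4.0.16 (R 4.3.3), with TMM scaling, the filter of filterByExpr, a robust quasi-likelihood fit of the 3 groups over all 11 libraries and Benjamini-Hochberg adjustment over 15384 genes. SE is the absolute log2 fold change divided by the square root of F. CPM values use TMM library sizes, and log2 CPM a prior count of 2. Class averages and medians are descriptions without a test. The fit was tested on simulated data with planted fold changes larger than any of the proteasome genes here. That run does not show how often changes as small as these are found. DESeq2 1.42.0, limma 3.58.1 (voom), other scalings, no filter, a replicate block and leaving out libraries were alternatives. The members and lists were chosen with earlier results of these data known. Named were the immunoproteasome genes, their partners, Psme1, Psme2, the 8 genes with the smallest edgeR p in each comparison, the 3 highest and 3 lowest in FPKM, those not tested, and up to 3 genes per pathway list and comparison. Some genes of the ubiquitin list are not reported here. Any further gene was named after its values were seen.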

Additional observations from a re-analysis of the deposited data

Results flagged for a closer look

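Within the groups of 4 libraries, 112 sets of values were examined for 1 library far from the other 3, and 9 were found. Chance gives this in about 1 of 20 independent sets. These sets are not independent, as they include class averages with their own members and genes named for a small p. The 9 therefore cannot be set against that rate. Cisplatin replicate 2 was the high library in 7 of them. Psma2 had 107 CPM there, beside 79.5 to 83.8 CPM in the other cisplatin libraries. Psma6 had 106 CPM beside 61.8 to 68.7 CPM, and Psmc1 had 168 CPM beside 138 to 140.5 CPM. Psmb9 had 7.37 CPM beside 2.37 to 2.55 CPM, and Psme2 had 92.9 CPM beside 60.9 to 64.8 CPM. Ubb, which encodes ubiquitin, had 399.7 CPM beside 290.2 to 300.5 CPM. The average log2 CPM of activators and inhibitor relative to control was 0.40 beside -0.07 to -0.02. In the control group, Uba6, an activating enzyme of ubiquitin, had 40.9 CPM in replicate 1 beside 47.3 to 48.5 CPM. The average log2 CPM of the assembly chaperones relative to the control mean was -0.18 in control replicate 4 beside 0.05 to 0.08 in the other controls. The cause was not tested.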

How the results depend on the processing

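No proteasome gene reached an adjusted p under 0.05 under any alternative run, including each library left out. The number with an unadjusted p under 0.05 for cisplatin over control moved more than other results. The higher count, 5 by edgeR, was 8 by DESeq2, 2 with upper-quartile scaling, 1 with library totals only, 1 without cisplatin replicate 2 and control replicate 4 (the last 2 chosen after seeing the data), 9 with the replicate block and 2 to 10 with single libraries left out. The lower count, 0 by edgeR, was 1 with library totals only, 1 without both libraries, 2 by limma-voom, 1 with the block and 0 to 2 with single libraries left out. For cotreatment over cisplatin the lower count was 1 without both libraries, 5 by limma-voom, 2 with the block and 0 to 3 with single libraries left out. For cotreatment over control limma-voom gave 2 higher and 1 lower, and leaving out single libraries 0 to 1 lower. The share of all genes at an unadjusted p under 0.05 in each run is not given here. These counts therefore describe the runs and are no result about proteasome genes. The runs also differed over all genes. At an adjusted p under 0.05, cotreatment over cisplatin gave 3 genes by edgeR, 100 by DESeq2 and 215 by limma-voom. As TPM the median level was 181 for the core, 142 for the 19S particle and 16.4 for the immunoproteasome. TPM rescales every library, and the cause of the other changes was not tested.

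Some fold changes changed sign, most of them near 0. For cisplatin over control Psmb6 had a log2 fold change of -0.024 with upper-quartile scaling, -0.060 with library totals, -0.14 by limma-voom, -0.019 with the block and -0.23 without both libraries. Without both libraries Psmb5 had -0.064, Psmb7 -0.043, Psme1 -0.022 and Psme2 -0.072, with library totals Psme1 had -0.019, and by limma-voom the interferon-induced gene Rsad2 had 0.31, beside -1.13 by edgeR (SE 0.75; -1.45 to -0.26 with single libraries left out). For cotreatment over cisplatin, Psmb9 had 0.47, Psmb6 0.075, Psmb7 0.058 and Psme2 0.016 without both libraries. Psmb6 had 0.0034 with library totals, and limma-voom gave Psmb9 0.086, Psmb10 -0.0019, Psmb6 0.13 and Psmb7 0.063. Psmb8 had -0.0031 with no filter, and the block gave -0.041 for Psmb8 and -0.051 for Psmb10. For cotreatment over control limma-voom gave Psmb5 0.035 and Psme2 0.018, and the block gave Uba6 0.029.

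With single libraries left out, log2 fold changes for cisplatin over control lay between -0.16 and 0.11 for Psmb6, -0.089 and 0.15 for Psme1, -0.079 and 0.25 for Psme2, and -0.17 and 0.066 for Ubb. For cotreatment over cisplatin they lay between -0.27 and 0.35 for Psmb8, -0.27 and 0.47 for Psmb9, -0.40 and 0.30 for Psmb10, -0.22 and 0.11 for Psmb6, -0.19 and 0.058 for Psmb7, -0.075 and 0.13 for Psme1, -0.21 and 0.016 for Psme2, and -0.0023 and 0.32 for Uba6. For cotreatment over control they lay between -0.13 and 0.087 for Psmb5, -0.22 and 0.12 for Psmb6, -0.065 and 0.16 for Psme1, -0.14 and 0.10 for Psme2, -0.058 and 0.50 for Calr, and -0.20 and 0.12 for Uba6. In the comparisons for which the naming rule took them, the other genes kept their sign and their side of the threshold. The exception was Maff, which reached an adjusted p of 0.0382 by DESeq2 for cotreatment over cisplatin. Further fold changes given in the text, such as that of Psmd10 for cisplatin over control, were not followed in this way.

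Libraries of different groups share replicate numbers, and the labels do not say if the numbers mark pairs. Over 10 same-numbered pairs the correlation of deviations from the group means was -0.31 to 0.36, and over 30 other pairs -0.48 to 0.55. These ranges show no pairing by number, but with so few libraries they cannot exclude one. The median of the core for cotreatment over control lay between -0.014 and 0.15 with single libraries left out. Psmb9 rests on 38 to 131 counts a library, which limits its precision.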

Other observations

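Psme3ip1, a gene that shares the symbol pattern but encodes a partner of the nuclear activator, had the smallest p for cotreatment over control of all genes that match the pattern, at 0.24 on the log2 scale (SE 0.11, adjusted p = 0.9999 by edgeR). It overlaps Rspry1 by 902 bases on the opposite strand. Its level was 67.0, 57.3 and 70.1 CPM under cotreatment, 55.6, 60.9, 62.4 and 60.4 CPM after cisplatin and 61.2, 52.9, 54.5 and 50.7 CPM in control. Psmc3ip, which acts in meiotic recombination, had log2 fold changes within 0.03 of 0 in all 3 comparisons. It overlaps Coasy by 3236 bases and Mlx by 3427 bases, both on the opposite strand and both with a mean of 0.0 CPM. Whether reads of these genes enter the Psmc3ip values was not tested.

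A gene without a symbol that the annotation describes as like Psme3 had 8.34, 5.28 and 4.88 CPM under cotreatment, 2.43, 4.66, 4.75 and 4.21 CPM after cisplatin and 4.61, 2.87, 4.42 and 5.30 CPM in control. Its exon length was 56063 bases, beside at most 7181 bases among the tested proteasome genes, and its mean level only 0.083 FPKM. Which transcript its counts come from was not tested. Its log2 fold change for cotreatment over cisplatin was 0.62 (SE 0.31, edgeR adjusted p = 0.605), with 39 to 129 counts a library, while Psme3 itself had -0.14 (SE 0.14). Reads that match both genes make both values uncertain.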
